A study of Mus musculus with 8 samples.

Results

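Uba6 and the related enzymes that activate ubiquitin and the ubiquitin-like proteins were followed here in mouse hippocampus, together with Ube2z, the conjugating enzyme that works with Uba6. The set was selected on the measured difference between the groups at 1 Uba6 probe of these arrays, and the other genes were added for their function. It holds 9 genes (Uba6, Uba1, Uba2, Uba3, Uba7, Atg7, Sae1, Nae1 and Ube2z), matched by gene name or older alias. They are measured by 13 probes, all of which passed the filter on dim probes, of 29406 tested probes and 55681 probes on the array in all, and the 9 genes compare with 15658 named genes that had a tested probe. Each probe had a single spot and was well above background on all 8 arrays, so no member lay near the filter's limit of 4 arrays.

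The samples were hippocampi of C57BL6/J female mice, aged 8 weeks, all of which lived in an enriched environment for 4 weeks. One group of 4 received anti-CD4 antibodies, which remove CD4+ T cells, and the other group of 4 received a control antibody. Total RNA was labelled with Cy3 and each sample was hybridised alone to an Agilent 1-colour array. The comparison asks how the loss of CD4+ T cells alters gene expression in the hippocampus under enrichment. Whether each sample is a different animal is not in the labels, and every p-value here rests on sample spread that could be technical in part.

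Ubiquitin and its relatives are attached to other proteins through a chain of enzymes. An activating enzyme (E1) charges the modifier, a conjugating enzyme (E2) receives it, and a ligase (E3) helps to place it on a substrate. Uba1 is the main activating enzyme of ubiquitin. Uba6 is the second one, which also activates the modifier FAT10 (gene Ubd) and passes its cargo to Ube2z. The pair of Sae1 and Uba2 activates SUMO, the pair of Nae1 and Uba3 activates NEDD8, and Uba7 activates the interferon-induced modifier ISG15. Atg7 activates Atg12 and the LC3 family in autophagy. In neurons these systems serve protein turnover and the remodelling of synapses.

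Each probe is an oligonucleotide of 60 bases. Uba6, Uba1, Atg7 and Sae1 each have 2 probes, and the one nearer the 3′ end of the transcript is called distal here. The stretches below are those of the probes on which the results turn, all read from the array files in the sense of the mRNA, with up to 30 bases shown for distal probes. Capitals mark AATAAA, the common poly(A) signal, where a probe holds it.
Uba6 distal probe A_52_P519538, bases 1 to 30: atagcttggctctgtttacttaagtctaca
Uba6 proximal probe A_52_P671062, all 60 bases: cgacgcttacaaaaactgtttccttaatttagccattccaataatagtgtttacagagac
Atg7 distal probe A_66_P119999, bases 1 to 30: agagccacacagcctcggtttaagagcact
Atg7 proximal probe A_55_P2151762, all 60 bases: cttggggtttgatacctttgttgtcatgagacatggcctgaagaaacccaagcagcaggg
Sae1 proximal probe A_52_P5652, all 60 bases: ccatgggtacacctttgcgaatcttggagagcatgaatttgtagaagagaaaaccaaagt
Nae1 probe A_55_P2437253, all 60 bases: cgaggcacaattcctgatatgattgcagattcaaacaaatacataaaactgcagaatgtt
Uba1 proximal probe A_55_P1971966, bases 30 to 59: aacctaaatcccAATAAAaggataattacc
Uba1 distal probe A_55_P2084408, bases 26 to 55: agtcaatcaatcAATAAAaacagtgatcag
Uba7 probe A_55_P2026233, bases 25 to 54: agatacttcaacAATAAAaacttgttgacg

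The Uba6 distal probe lies at chr5:86539994-86540053 of mm9 on the minus strand, and the files place it at position 4788 of the transcript. The proximal probe lies at chr5:86549580-86549639, at position 2758 of the same transcript, so their starts are 9586 bases apart on the genome. The proximal 60 bases can be read without a stop codon in 1 frame, whereas the distal 60 bases hold a stop codon in every frame. For Atg7 the distal probe is at chr6:114809893-114809952 and the proximal one at chr6:114657539-114657598, both on the plus strand. Sae1 has its distal probe at chr7:16913054-16913113 and its proximal one at chr7:16952241-16953902 on the minus strand. The Sae1 proximal probe and the Nae1 probe (chr8:107042163-107043503, minus strand) both join exons, leaving out 1602 and 1281 bases of intron. The motif AATAAA stood on the sense strand in 3 of the 13 member probes and in 12.7% of all tested probes. On the other strand it stood in 1 of 13, the Atg7 distal probe, and in 4.05% of tested probes. Whether a probe lies in coding sequence or in a UTR was not annotated here.

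All levels below are log2 of the array's processed signal minus the 75th percentile of that array, so 0 is the level that 75% of the spots on an array do not exceed. Each probe has its own response, so the level of 1 probe is not set against that of another as an amount of RNA; where a gene has 2 probes, the gap between them is used only to compare the groups.

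Uba6 RNA measured at the distal probe was lower in every anti-CD4 sample than in any control sample, while the proximal probe of the same gene was at nearly the same mean level in both groups. At the distal probe, Uba6 was at -1.64, -1.72, -1.70 and -1.62 in the 4 anti-CD4 samples, against -1.19, -1.02, -1.15 and -1.10 in the 4 control samples. The groups did not overlap, and the gap between them was several times the spread within either. The means were -1.67 ± 0.05 in anti-CD4 samples and -1.11 ± 0.07 in control samples (SD, n = 4 each), a difference of -0.56 ± 0.064 (SE), or a ratio of 0.680. Before scaling, the processed signals were 231, 231, 236 and 238 in anti-CD4 samples, against 405, 418, 333 and 341 in control samples. This difference is what led to the choice of the family, so it is given as a description with no test.

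At the proximal probe, Uba6 was at -2.26, -2.62, -2.14 and -2.29 in anti-CD4 samples, against -2.38, -2.35, -2.40 and -2.14 in control samples. The groups overlapped throughout, with the lowest value in an anti-CD4 sample and the highest in a control sample. The means were -2.33 ± 0.21 in anti-CD4 samples and -2.32 ± 0.12 in control samples, a difference of -0.0075 ± 0.11 (95% interval -0.26 to 0.25). The distal difference lies outside that interval, but it is the value that chose the family, so the comparison is not a test. The mean of both probes' differences was -0.28. In bulk tissue, fewer cells that hold an RNA and less of it per cell cannot be told apart.

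**Figure D1:**
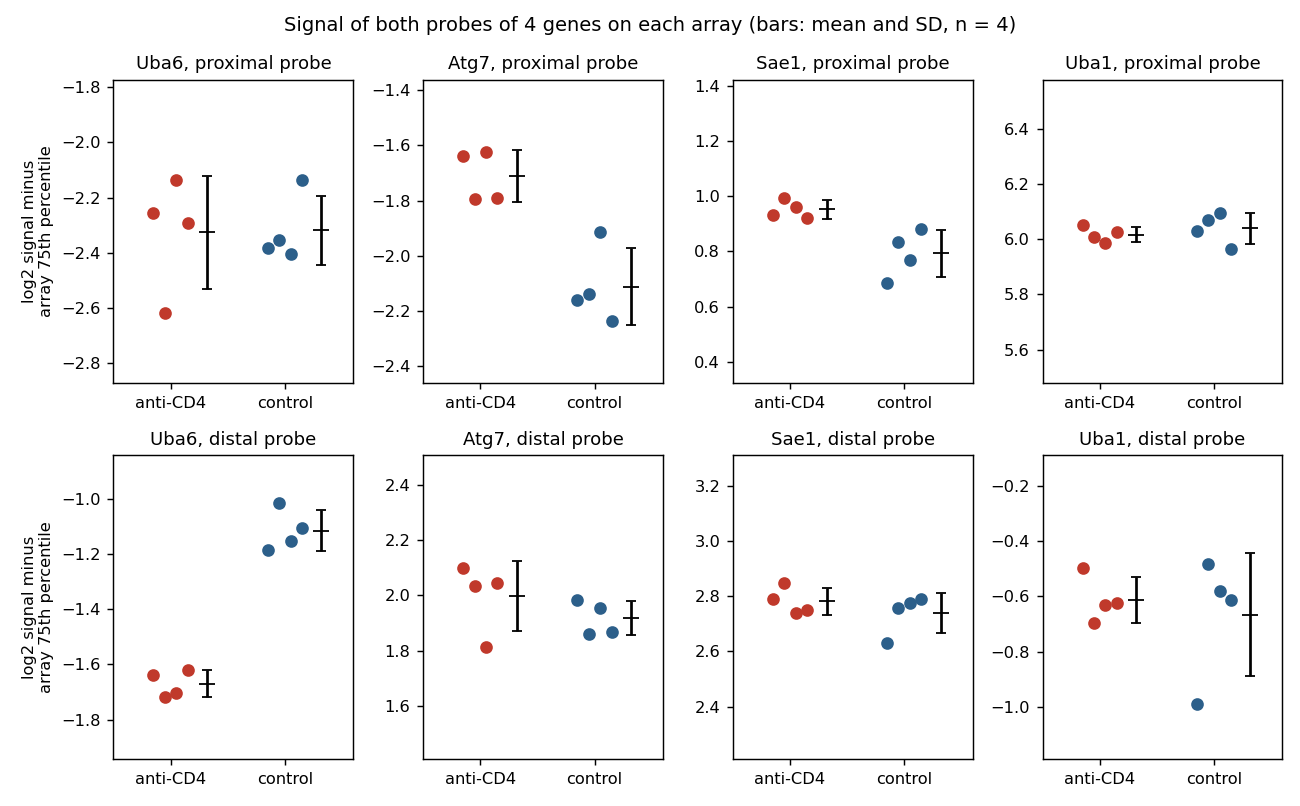
Levels (log2 signal minus the array's 75th percentile, vertical axis) of both probes of Uba6, Atg7, Sae1 and Uba1 in the 4 anti-CD4 samples (red, left) and 4 control samples (blue, right), with mean and SD; every panel spans the same number of log2 units. The distal Uba6 probe sits near -1.67 in anti-CD4 samples and -1.11 in control samples without overlap, while its proximal probe overlaps around -2.3.

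The gap between both Uba6 probes within each array compares 2 places assigned to the same transcript. Over the 8 arrays the levels at these probes had a Pearson r of 0.080. Whether they read the same RNA was not tested. The distal minus the proximal level of Uba6 was 0.62, 0.90, 0.43 and 0.67 in anti-CD4 samples, against 1.20, 1.34, 1.25 and 1.03 in control samples. The groups did not overlap. The means were 0.66 ± 0.19 in anti-CD4 samples and 1.20 ± 0.13 in control samples (SD, n = 4 each), a difference of -0.55 ± 0.11 (SE). As the proximal difference is close to 0, this gap restates the distal difference that chose the family, so it is a description with no test. Of the 3616 genes with 2 tested probes, 1.80% had a gap that differed at least as far from 0, a share which that choice fixes. In that comparison limma called 0 genes at an adjusted p under 0.05, with 581 (16.1%) at an unadjusted p under 0.05 and a smallest adjusted p of 0.1004. The groups did not overlap in 10.9% of genes, and in 5.03% with anti-CD4 samples lower. Across all such genes the median gap stayed within -0.0126 to 0.0201 of its mean in anti-CD4 samples and -0.0280 to 0.0222 in control samples. That median mixes genes whose probes lie at different distances, so it cannot show a shift that depends on distance. The cause of the Uba6 gap was not tested.

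The part of the array that holds the Uba6 distal spot was also lower in anti-CD4 samples. Of the 51 tested spots within 5 rows and columns of it, which carry probes of other genes, 44 had a lower mean in anti-CD4 samples, with a median difference of -0.18. Only 0.368% of 29095 such windows had a median as low. The neighbours' median deviation was -0.06, -0.05, -0.11 and -0.11 on the anti-CD4 arrays, against 0.05, 0.08, 0.15 and 0.10 on the control arrays. After each array's neighbour median was subtracted, Uba6 stood at -1.58, -1.67, -1.60 and -1.51 in anti-CD4 samples, against -1.24, -1.10, -1.30 and -1.20 in control samples. The groups still did not overlap and the difference was -0.38. Of the 51 neighbours, 4 differed at least as far downward as Uba6 did. At the proximal Uba6 spot the neighbours' median difference was 0.03. All anti-CD4 arrays occupied 1 row of the slide and all control arrays the other, so slide row and treatment cannot be told apart. The part that position on the array had in the Uba6 value was not tested.

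Uba1, which charges most of the cell's ubiquitin, differed by less than the spread between samples at both probes. Its proximal probe (chrX:20259770-20259829, plus strand) was at 6.02 ± 0.03 in anti-CD4 samples and 6.04 ± 0.06 in control samples (SD, n = 4 each), a difference of -0.02 ± 0.058 with a limma adjusted p of 0.894. Its 95% interval ran from -0.16 to 0.11. The distal Uba1 probe (chrX:20260246-20260305) was at -0.61 ± 0.08 in anti-CD4 samples and -0.67 ± 0.22 in control samples, a difference of 0.05 ± 0.11 (adjusted p = 0.861). The wide control spread at the distal probe came from control replicate 1, which stood at -0.99. The starts of the Uba1 probes are 476 bases apart, and both hold AATAAA in the stretches printed above.

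Ube2z, which takes ubiquitin or FAT10 from Uba6, is measured by 1 probe at chr11:95909874-95909933 on the minus strand. It was at 1.98 ± 0.04 in anti-CD4 samples and 1.91 ± 0.13 in control samples (SD, n = 4 each), a difference of 0.07 ± 0.076 with a limma adjusted p of 0.711. The groups overlapped, and the interval from -0.10 to 0.24 leaves out a fall as large as that of the Uba6 distal probe. Its neighbouring spots were low in anti-CD4 arrays as well, with a median difference of -0.11. With the neighbours subtracted, Ube2z differed by 0.13 and the groups no longer overlapped.

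Of the SUMO activating pair, both subunits had a higher mean in anti-CD4 samples and neither passed the threshold. Sae1, the smaller subunit, was at 0.93, 0.996, 0.96 and 0.92 in anti-CD4 samples at its proximal probe, against 0.69, 0.83, 0.77 and 0.88 in control samples. These groups did not overlap, by a margin smaller than the control spread. The means were 0.95 ± 0.03 in anti-CD4 samples and 0.79 ± 0.08 in control samples, a difference of 0.16 ± 0.064 (limma, adjusted p = 0.353). With neighbouring spots subtracted it was 0.12 and the groups overlapped. At the distal probe, Sae1 was at 2.78 ± 0.05 in anti-CD4 samples and 2.74 ± 0.07 in control samples, a difference of 0.04 ± 0.064 (adjusted p = 0.799).

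Uba2, the catalytic SUMO subunit, was at 4.50, 4.30, 4.29 and 4.35 in anti-CD4 samples and at 3.98, 4.26, 4.31 and 4.22 in control samples, at chr7:34925793-34925852 on the minus strand. The groups overlapped, and the lowest value was that of control replicate 1. The difference of Uba2 was 0.17 ± 0.090 with a limma adjusted p of 0.459.

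Both subunits of the NEDD8 activating enzyme were close to the same level in the 2 groups. Uba3, the catalytic subunit (chr6:97133814-97133873, minus strand), was at -0.41 ± 0.13 in anti-CD4 samples and -0.44 ± 0.17 in control samples, a difference of 0.03 ± 0.10 (limma, adjusted p = 0.920). Nae1, its partner, was at 0.68 ± 0.12 in anti-CD4 samples and 0.76 ± 0.08 in control samples (SD, n = 4 each), a difference of -0.08 ± 0.081 (adjusted p = 0.680). The 95% intervals were -0.20 to 0.27 for Uba3 and -0.27 to 0.10 for Nae1.

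Uba7, the activating enzyme of ISG15, was at -0.59 ± 0.15 in anti-CD4 samples and -0.66 ± 0.17 in control samples, at chr9:107886328-107886387 on the plus strand. The difference of 0.08 ± 0.11 was smaller than the spread within either group (limma, adjusted p = 0.790, 95% interval -0.17 to 0.32).

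Atg7 gave the largest positive difference of the 13 probes, again at 1 probe of 2. At the proximal probe, Atg7 was at -1.64, -1.80, -1.62 and -1.79 in anti-CD4 samples, against -2.16, -2.14, -1.91 and -2.24 in control samples. The groups did not overlap, with control replicate 3 nearest to the anti-CD4 samples. The means were -1.71 ± 0.09 in anti-CD4 samples and -2.11 ± 0.14 in control samples (SD, n = 4 each), a difference of 0.40 ± 0.087 or a ratio of 1.32. Its unadjusted p was 0.00151 and its adjusted p over all probes was 0.198 by limma, so it did not pass. The difference was 0.18 when the background was modelled by normexp (adjusted p = 0.325) and 0.13 in the authors' normalised table (adjusted p = 0.448). Subtracting neighbouring spots left it at 0.40.

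At the Atg7 distal probe the values were 2.10, 2.04, 1.81 and 2.04 in anti-CD4 samples, against 1.98, 1.86, 1.96 and 1.87 in control samples. The groups overlapped and the lowest value was an anti-CD4 sample. The difference was 0.08 ± 0.078 (limma, adjusted p = 0.680). The distal minus proximal gap of Atg7 was 3.71 ± 0.19 in anti-CD4 samples and 4.03 ± 0.12 in control samples, a difference of -0.32 ± 0.11 without overlap (adjusted p = 0.222 over the 3616 genes). It was -0.12 with normexp background and -0.09 in the authors' normalised table. Of those genes, 9.43% had a gap that differed at least as far from 0.

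For the Sae1 pair of probes the gap was 1.83 ± 0.04 in anti-CD4 samples and 1.95 ± 0.04 in control samples. The difference was -0.12 ± 0.053 without overlap (limma, adjusted p = 0.324), and -0.06 in the authors' normalised table. Of all genes with 2 tested probes, 48.9% differed at least as far from 0, and the groups of 10.9% did not overlap. The gap of Uba1 was -6.63 ± 0.07 in anti-CD4 samples and -6.71 ± 0.22 in control samples, a difference of 0.08 ± 0.11 (adjusted p = 0.754). None of these 3 genes passed the test of the gap. Their differences were all nearer 0 than that of Uba6, an order that follows largely from the choice of Uba6 for its distal difference.

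Over the 13 member probes, 9 had a higher mean in anti-CD4 samples and 4 a lower one, with a median difference of 0.05 and a range from -0.56 to 0.40. Over all 29406 tested probes, 15034 were higher and 14372 lower, with a median of 0.0046. No probe of the array passed an adjusted p of 0.05 in limma (0%), the smallest adjusted p being 0.148, while 3813 probes (13.0%) had an unadjusted p under 0.05. The groups did not overlap at 3 member probes: the distal Uba6 probe, which was lower, and the proximal probes of Atg7 and Sae1, which were higher. Across the array 8.21% of probes did not overlap, 3.77% with anti-CD4 samples higher and 4.43% with them lower. As Uba6 was picked for its difference, this count is a description. Outside Uba6, the smallest adjusted p of the 11 probes of 8 genes was 0.198.

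**Figure D2:**
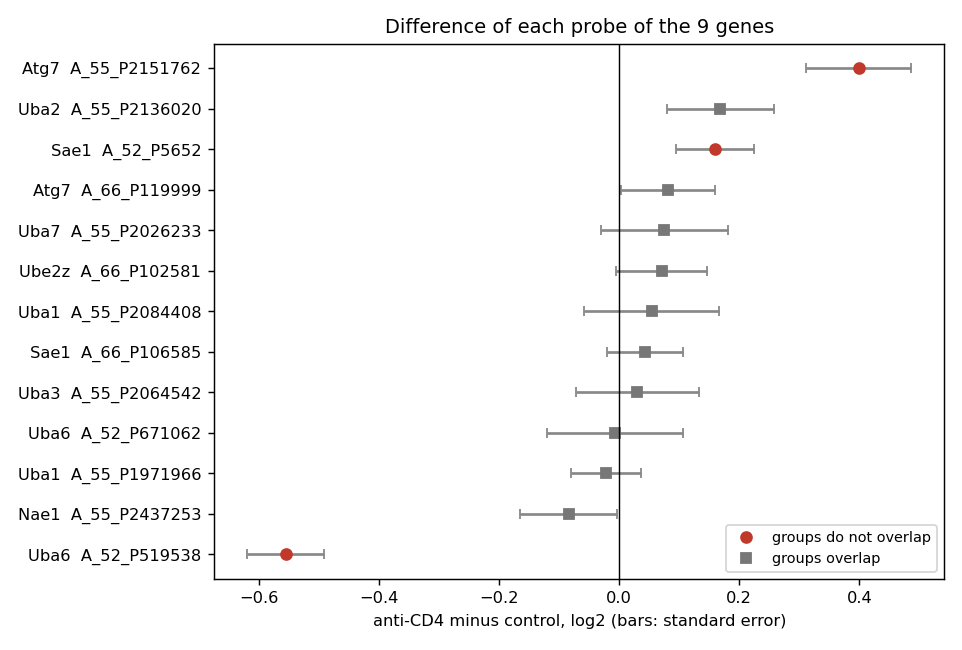
Difference in level (anti-CD4 minus control, log2, horizontal axis) of the 13 probes of the 9 genes, ordered by size, with standard errors; red circles mark the 3 probes whose groups do not overlap and grey squares the others. The distal Uba6 probe lies alone at -0.56, Atg7's proximal probe at 0.40, and all others between -0.08 and 0.17.

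The distal Uba6 difference was -0.58 to -0.37 over the 20 other settings tried, and the proximal one stayed close to 0. As the groups do not overlap at the distal probe, leaving out a sample could not turn its sign. Several changes of the filter or the fit leave the value as it is by construction. The distal value chose the family, so its range is a description. With any single sample left out the distal difference was -0.58 to -0.52. It was -0.43 with normexp background, -0.37 in the authors' normalised table and -0.38 with neighbouring spots subtracted. The proximal difference of Uba6 changed sign with the setting, with values such as 0.026 when each array was centred on its median, and it ranged from -0.070 to 0.090 when single samples were left out.

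**Figure D3:**
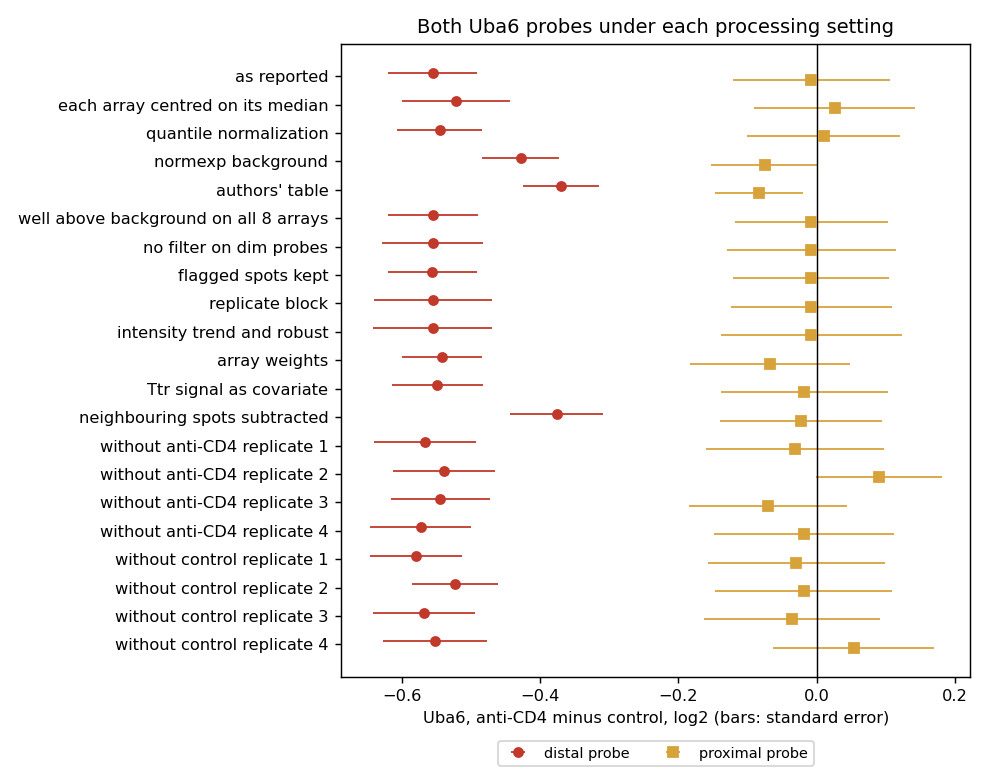
Difference of both Uba6 probes (anti-CD4 minus control, log2, horizontal axis) as reported and under each of 20 other settings (vertical axis), with standard errors; red circles are the distal probe and yellow squares the proximal probe. The distal probe stays between -0.58 and -0.37 and the proximal probe around 0.

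The genes most like Uba6 over the arrays were found with its distal probe, which gave the higher signal. Over the levels on the 8 arrays, among 19827 gene-named probes, the highest Pearson correlations were those of Plppr2 (r = 0.980), Ptp4a2 (0.979), Tbc1d5 (0.978), Ercc6 (0.970) and Zfp317 (0.969). All 5 were lower in anti-CD4 samples, by log2 differences of -0.25, -0.14, -0.32, -0.48 and -0.38, a direction fixed by ranking against a probe chosen for its group difference. When only deviations from each group's mean were compared, the 5 highest were Setbp1 (r = 0.998), Chd8 (0.986), Aasdhppt (0.981), Rgs7bp (0.978) and Mettl18 (0.978), with differences between -0.17 and 0.18. The 2 rankings share no gene. Over the other member probes, the r of deviations with distal Uba6 ranged from -0.203 (proximal Atg7) to 0.816 (Ube2z). It was 0.734 for distal Uba1, 0.651 for Nae1, 0.615 for Uba7 and 0.287 for the proximal Uba6 probe. Over the levels, the r with Ube2z was -0.253. These values describe 8 arrays, those of the rankings are the highest of many, and the arrays share the slide and the scaling.

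The genes that supply or receive the activated modifiers were counted by the brightest tested probe of each gene. Among all 15658 such genes, limma called none (0%) at an adjusted p under 0.05, 1975 (12.6%) had an unadjusted p under 0.05, the groups of 8.47% did not overlap (4.50% higher and 3.97% lower in anti-CD4 samples), and the median difference was 0.02. None of the listed genes below passed the threshold. Of the remaining activating enzymes, Mocs3 for URM1 differed by 0.10 (adjusted p = 0.704) and the probe named for Uba1y, the Y-linked copy of Uba1, by 0.11 (0.566). That probe was at -0.46 ± 0.03 in anti-CD4 samples and -0.57 ± 0.13 in control samples, well above background on all 8 arrays of female mice, so its signal may not be that of Uba1y. A second probe of that name was well above background on 0 of 8 arrays.

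Of the ubiquitin and ubiquitin-like modifiers, 18 of 19 were tested, 13 with a higher and 5 with a lower mean in anti-CD4 samples, with a median of 0.05 and no gene without overlap. Ubb, a polyubiquitin gene, differed by -0.02 (limma, adjusted p = 0.930) and by 0.09 at its other tested probe, Nedd8 by 0.08 (0.591) and Isg15 by 0.22 (0.495). The Isg15 difference was 0.13 in the authors' normalised table and 0.27 at its other tested probe. The exception was Ubd, which encodes FAT10, the second cargo of Uba6: its probe was well above background on 0 of 8 arrays and was not tested.

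Among genes tied to Uba6, 4 of 5 were tested, 1 higher and 3 lower in mean, with a median of -0.06. Birc6, a very large conjugating enzyme and ligase that is charged by Uba6, was at 1.004 ± 0.06 in anti-CD4 samples and 1.02 ± 0.11 in control samples (SD, n = 4 each), a difference of -0.01 (limma, adjusted p = 0.953). Ube3a, a ubiquitin ligase of neurons, differed by -0.10 (0.576) and the deubiquitinase Usp8 by -0.27 (0.472). Ube2z is the gene with the higher mean.

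Of the conjugating enzymes, 34 of 35 were tested, 20 with a higher and 14 with a lower mean, with a median of 0.02 and a range from -0.69 to 0.44. The groups of 3 genes (8.82%) did not overlap, 1 higher and 2 lower in anti-CD4 samples. The higher one is not among the genes named here, which were taken by smallest unadjusted p. Ube2d1, a conjugating enzyme with many ligase partners, was at -1.81 ± 0.02 in anti-CD4 samples and -1.42 ± 0.20 in control samples, a difference of -0.39 ± 0.097 without overlap (limma, adjusted p = 0.237), and of -0.13 in the authors' normalised table. Ube2g1 differed by -0.31 without overlap (adjusted p = 0.255), and by -0.14 with neighbouring spots subtracted. Ube2c, the mitotic conjugating enzyme, was at -3.65 ± 0.36 in anti-CD4 samples and -2.96 ± 0.28 in control samples, a difference of -0.69 with overlapping groups (adjusted p = 0.250). It was -0.21 in the authors' normalised table and -0.57 at the other tested Ube2c probe. Its partner in the anaphase-promoting complex, Ube2s, differed by 0.44 with overlapping groups (adjusted p = 0.341).

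In the autophagy conjugation list, 17 of 18 genes were tested, 10 higher and 7 lower in mean, with a median of 0.02. The groups of 2 genes (11.8%) did not overlap, 1 in each direction, and both encode proteases that process the LC3 family for Atg7. Atg4b was at -0.66 ± 0.04 in anti-CD4 samples and -0.98 ± 0.06 in control samples (SD, n = 4 each), a difference of 0.31 ± 0.060 (limma, adjusted p = 0.173), and of 0.20 in the authors' normalised table. Atg4c differed the other way, by -0.30 (adjusted p = 0.255), and by -0.19 with neighbouring spots subtracted, while its other tested probe differed by -0.26. Sqstm1, the cargo receptor p62, differed by 0.20 (0.359), by 0.31 in the authors' normalised table and by 0.19 at its other tested probe. Gabarapl1, of the LC3 family, differed by 0.15 (0.458), and by 0.03 with normexp background. Atg12, the modifier charged by Atg7, differed by -0.12 (0.547) at its brighter probe and by 0.07 at the other.

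In the NEDD8 list 21 of 21 genes were tested, 10 higher and 11 lower in mean, with a median of -0.00063. The groups of 1 gene (4.76%) did not overlap: Rnf7, the RING subunit of Cul5 ligases, differed by 0.19 at its brightest probe (limma, adjusted p = 0.305), and by 0.10 there with neighbouring spots subtracted. Its other tested probes differed by 0.05, 0.06 and 0.05, all with overlapping groups. Nub1, which lowers NEDD8 and FAT10 conjugates, differed by 0.23 (0.323), and by 0.13 with neighbouring spots subtracted. Of the neddylation cofactors, Dcun1d3, well above background on 6 of 8 arrays, differed by 0.40 (0.347), and by 0.08 in the authors' normalised table. Dcun1d5 differed by -0.12 (0.470), and by -0.02 with neighbouring spots subtracted. In the SUMO list 16 of 16 were tested, 11 higher and 5 lower in mean, with a median of 0.06 and no gene without overlap. The differences with the lowest p in it were those of the SUMO protease Senp5, -0.21 (0.386) against -0.08 at its other tested probe, and the SUMO ligase Pias2, 0.11 (0.495). In the ISG15 list 5 of 6 were tested, 2 higher and 3 lower in mean, with a median of -0.0037. Its protease Usp18 differed by 0.42 (0.408), and by 0.20 in the authors' normalised table, and its conjugating enzyme Ube2l6 by -0.07 (0.781). Some genes belong to more than 1 list.

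**Figure D4:**
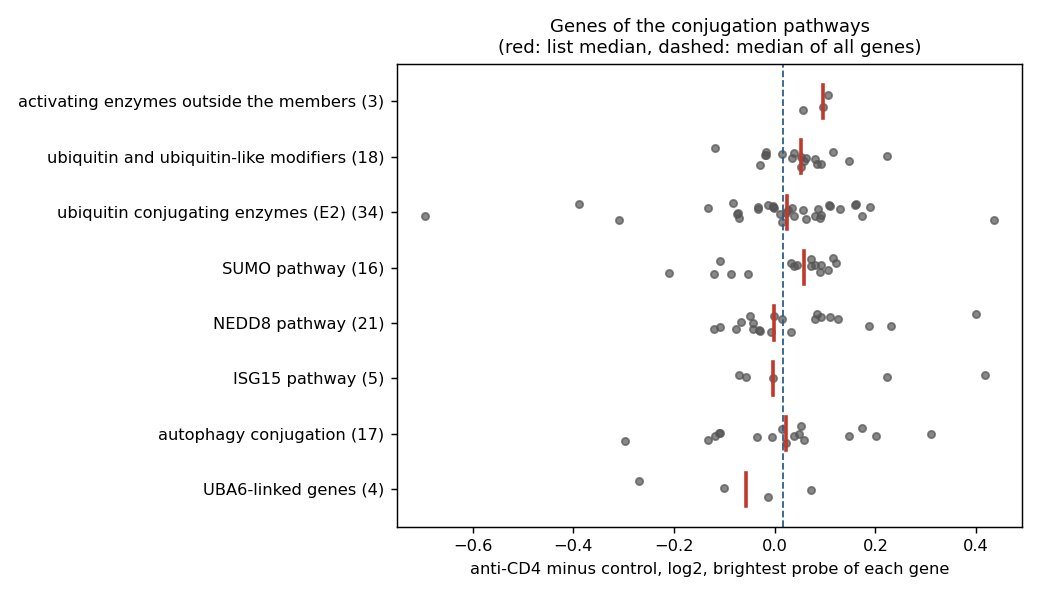
Difference in level (anti-CD4 minus control, log2, horizontal axis) of the brightest tested probe of each gene in 8 lists (vertical axis, number of tested genes in brackets); red lines are list medians, between -0.06 and 0.10, and the dashed line is the median of all 15658 genes at 0.02. Points at the edges are Ube2c at -0.69 and Ube2s at 0.44.

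Across the arrays 51.1% to 54.3% of probes were well above background, no member spot was saturated, and pairs of arrays correlated at r = 0.988 to 0.996 within groups and 0.986 to 0.994 between groups. Of the hippocampal neuron markers, 10 of 10 were tested, with summed signals (in units of the array's 75th percentile) of 308 to 345 in anti-CD4 samples and 323 to 367 in control samples. Choroid plexus markers varied widely within both groups, from 4.08 to 417 in anti-CD4 samples and from 1.98 to 347 in control samples, and with Ttr signal as a covariate the Uba6 distal difference was -0.55. Marker sums of the groups overlapped for neurons, choroid plexus, thalamus and habenula, T cells, microglia and macrophages, astrocytes, oligodendrocytes, and endothelium and pericytes. They did not overlap for 3 lists. As linear signals were summed, a bright gene can carry a list, and overlapping sums need not mean that each marker was alike. Of the neuron markers, Prox1 differed by -0.52 with overlapping groups (limma, adjusted p = 0.373), Camk2a by -0.14 (0.697) and Snap25 by -0.0076 (0.975). Sums were 14.6 to 34.9 in anti-CD4 samples and 9.95 to 14.2 in control samples for hypothalamus and amygdala (5 of 8 tested, Avp, Oxt and Pmch not). For the striatum (5 of 7 tested, Drd2 and Adora2a not) they were 26.85 to 37.6 in anti-CD4 samples and 21.3 to 26.83 in control samples. Red blood cell markers (5 of 5 tested) summed to 113 to 133 in anti-CD4 samples and 72.9 to 109 in control samples. Anti-CD4 replicate 3 had the lowest hypothalamus and amygdala sum of its group, 14.6, the highest red blood cell sum, 133, and Uba6 distal at -1.70. The part of these cell types in the Uba6 value was not tested. Of 12 T cell markers 3 were tested, with sums of 5.17 to 6.21 in anti-CD4 samples and 4.80 to 5.98 in control samples. Cd4 itself was at 2.05 ± 0.12 in anti-CD4 samples and 2.03 ± 0.15 in control samples (limma, adjusted p = 0.948), a difference smaller than the spread within either group.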

How the data were processed

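Total RNA of 4 anti-CD4 and 4 control hippocampal samples was measured on Agilent arrays, 1 per sample, scanned on 1 slide. The deposited intensities are the processed signals of Feature Extraction 10.7.3.1, which already had background removed, per the file headers. The authors' deposited table holds log2 values, with a median of 7.83 in every column; each column tracked its own array's median signal (Spearman correlation of at least 0.99999). The submitters' processing notes name limma.

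Control spots were left out. Outlier spots (127 to 179 on anti-CD4 arrays, 98 to 124 on control arrays) were left out only where their probe also had an unflagged spot. A probe with a single spot therefore kept it, flagged or not. Spots of 1 probe were averaged, and log2 signal was centred on each array's 75th percentile. Probes well above background on 4 or more of 8 arrays were tested with limma 3.58.1 (R 4.3.3, lmFit and eBayes, two-sided) and Benjamini-Hochberg adjustment over all of them, with a threshold of 0.05. The fit was tested on simulated data. The number of arrays limits the precision. Names came from the files' accessions through RefSeq for 27509 probes, from symbols for 3549 and from synonyms for 404. Coordinates are those in the files (mm9).

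The members and lists were chosen with earlier results of these data known. Named genes are all member probes, up to 4 genes a list by smallest unadjusted p plus listed partners, and the 5 genes most like Uba6 by each measure. The alternatives were other scalings, backgrounds, filters and fits, a replicate block, a Ttr covariate, leaving out each sample, and, chosen after seeing the data, subtraction of neighbouring spots. Samples with the same replicate number did not deviate together (r from -0.44 to 0.28). Some genes of the lists are not reported here by name.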

Additional observations from a re-analysis of the deposited data

Results flagged for a closer look

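Gaps within groups were examined in 86 groups of 4 values, of which 2 (2.33%) held a value that stood apart from the other 3, and chance gives about 1 in 20. Mocs3, the activating enzyme of URM1, was at 0.987 in anti-CD4 replicate 3, below the other anti-CD4 samples. Rnf7, of the NEDD8 list, was at 4.47 in anti-CD4 replicate 2, below the other anti-CD4 samples and above every control sample. No value of the 13 member probes stood apart in this way.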

How the results depend on the processing

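The count of probes past the threshold, 0 as reported, was 2 (both lower) with the authors' table, 2 (both lower) with an intensity trend and robust fit, 1 with the Ttr covariate, and 0 to 2 when single samples were left out (2 without anti-CD4 replicate 3); 0 member probes were among those calls. Uba6 at its distal probe differed by -0.43 in the normexp values, by -0.37 in the authors' table and by -0.38 after subtraction of neighbouring spots, and by -0.58 to -0.52 without single samples. Uba6 at its proximal probe differed by 0.026 with median centring, 0.010 with quantile normalization and -0.070 to 0.090 without single samples. The Uba6 gap between probes was -0.35 in the normexp values, -0.29 in the authors' table, -0.35 after subtraction of neighbours and -0.63 to -0.47 without single samples. Signs near 0 turned for Uba1 (proximal probe 0.012 with median centring, distal -0.054 to 0.12 and gap -0.029 to 0.13 without single samples), Uba3 (-0.045 to 0.081), Birc6 (0.020 with median centring, -0.065 to 0.014), Ubb (0.017 with median centring, 0.0019 with the Ttr covariate, -0.044 to 0.014) and Uba1y (-0.0097 with the authors' table). Of the 11 probes outside Uba6, 8 kept their direction in all 20 settings and 0 passed in any. Several of these settings leave a difference as it is by construction. A probe whose groups do not overlap also cannot change sign when a sample is left out. The cause of the changes of sign and size was not tested. With a replicate block, 0 probes passed and 2763 had an unadjusted p under 0.05, against 3813 without; the numbers do not pair the samples, and 1 of 4 anti-CD4 arrays deviated most like the control array of its number. All 13 member probes were well above background on all 8 arrays. The size of some differences still moved with the background or table used. The proximal Atg7 difference was 0.40 as reported, 0.18 in the normexp values and 0.13 in the authors' table.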
